A study of Mus musculus with 72 samples.

Results

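The genes described here are 5 regulators of transcription: the nuclear factor I genes Nfia, Nfib and Nfix, the LIM domain cofactor gene Ldb2 and the zinc finger gene Zfp536. They were chosen by name because of how their transcripts relate to Tph2 and Fev in single cells of this series, so their levels are given as a description, with no test. They are 5 of the 17231 genes in the 10X table and 5 of the 24256 genes in the table of manually sorted cells. The study profiled neurons of the mouse dorsal raphe (DR) that carry a fluorescent label through Pet1-Flpe, a transgene driven from the gene for the transcription factor Pet1, whose symbol in the files is Fev. Droplet-based 10X libraries came from the full DR in 2 runs of pooled mice, a Pet1::Flpe+/-; hM3Dq+/+ run of mean age 65.5 days and an En1::cre+/-;Pet1::Flpe+/-;RC::FrePe+/- run of mean age 59 days. In addition, 70 single cells were sorted by hand from microdissected parts of the DR of Pet1::Flpe+/-;RC::FrePe+/- mice with a cre driver, in which both recombinases are needed for the label.

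The hand-sorted cells fall into 8 groups. Cells of Sert::cre+/- mice aged 63 or 90 days came from the dorsolateral (10 cells), dorsomedial (9 cells), ventromedial (8 cells) and caudal DR (6 cells, all at 63 days). P2ry1::cre cells came from the caudal DR (10 cells, 62 to 74 days), Npy2r::cre cells from the caudal (10 cells) and rostral DR (9 cells, 77 or 87 days for both regions), and Crh::cre cells from the rostral DR (8 cells, 83 or 119 days). Every group thus reports only cells with a history of Pet1 and of the cre driver, and the regions, drivers and ages are partly bound together. The 10X table holds 2350 cells with 12320 to 134079 UMIs each (median 59646), in 2 barcode sets of 869 and 1481 cells that share 0 barcodes. These sets are not tied to the 2 runs by the labels, so the 10X table was treated as 1 pooled sample. The manual libraries hold 756872 to 7664103 reads each, every library is 1 cell, and the labels name no animal, so each of the 8 groups also counts as 1 sample. Fev had a UMI in all 2350 10X cells.

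Nuclear factor I proteins bind DNA as dimers of any of the family's products, through half-sites with the core TTGGC, and are known in the developing brain for the onset of glial genes and for the maturation of neurons. Ldb2 has no DNA-binding domain and joins LIM-homeodomain and LIM-only proteins into larger complexes, and Zfp536 is a zinc finger repressor described in neural differentiation. Tph2 encodes the rate-limiting enzyme of brain serotonin synthesis, and Fev encodes the ETS factor that sets up and maintains serotonergic gene expression.

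In the mm10 annotation Nfia (ENSMUSG00000028565) lies at chr4:97772734-98118874 on the plus strand, and the other 4 genes lie on minus strands. Nfib (ENSMUSG00000008575) is at chr4:82290173-82705750, Nfix (ENSMUSG00000001911) at chr8:84699876-84800344, Ldb2 (ENSMUSG00000039706) at chr5:44472132-44799680 and Zfp536 (ENSMUSG00000043456) at chr7:37472135-37773641. Exons of Nfia overlap E130114P18Rik and those of Nfix overlap Lyl1 and G430095P16Rik, all on the opposite strand. Whether the read counting used the strand is not given in the sources used here. The 3 overlapping genes held 12, 15 and 25 UMIs in all 10X cells, against 351 UMIs of Nfia and 1569 of Nfix.

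Because the NFI genes and Tph2 are set against each other throughout, promoter windows are shown for Nfix, Fev and Tph2, read from RefSeq (GRCm38.p6, the assembly also called mm10). Each window holds 250 bases before and 50 after an annotated start, is written 5′ to 3′ on the gene's strand, and has the half-site TTGGC, or GCCAA where it lies on the other strand, in capitals. RefSeq windows matched 3 of the 5 genes, namely Nfia, Nfix and Zfp536.
Nfix, chr8:84772826-84773125, minus strand: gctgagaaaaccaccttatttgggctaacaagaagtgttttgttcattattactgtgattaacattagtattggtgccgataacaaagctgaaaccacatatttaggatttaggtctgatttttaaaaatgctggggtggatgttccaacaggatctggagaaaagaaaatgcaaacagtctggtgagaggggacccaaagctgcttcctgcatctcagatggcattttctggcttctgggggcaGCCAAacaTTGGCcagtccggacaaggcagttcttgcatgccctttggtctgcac
Fev, chr1:74885359-74885658, minus strand: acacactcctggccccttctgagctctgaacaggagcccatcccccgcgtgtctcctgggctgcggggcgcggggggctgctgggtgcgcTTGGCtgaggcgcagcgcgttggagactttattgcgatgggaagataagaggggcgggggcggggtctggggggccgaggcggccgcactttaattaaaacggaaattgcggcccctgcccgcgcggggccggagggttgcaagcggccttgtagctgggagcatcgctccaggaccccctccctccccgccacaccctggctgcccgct
Tph2, chr10:115184973-115185272, minus strand: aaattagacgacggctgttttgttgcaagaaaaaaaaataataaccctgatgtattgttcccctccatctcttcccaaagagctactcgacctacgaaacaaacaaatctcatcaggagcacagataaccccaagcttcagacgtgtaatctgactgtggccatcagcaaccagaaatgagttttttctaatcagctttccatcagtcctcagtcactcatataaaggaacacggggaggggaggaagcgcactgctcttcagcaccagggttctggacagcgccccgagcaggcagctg
The Nfix window held 2 half-sites, 1 in each orientation and close to the start. The other Nfix windows held 0, 1 and 1 half-sites, the Fev window 1, and the windows of Tph2, Nfia and Zfp536 none. For scale, 46.7% of 32851 mouse promoter windows of the same length held at least 1 half-site on either strand and 14.4% held at least 2. The full site of 2 inverted half-sites with 5 bases between them (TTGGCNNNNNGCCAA) was in 0.0365% of all windows and in none of those of these genes. A match describes letters in the window, not binding.

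Transcripts of all 5 genes were sparse across the 10X cells. Nfia had a UMI in 11.5% of the 2350 cells, Nfib in 11.1%, Nfix in 26.6%, Ldb2 in 13.8% and Zfp536 in 18.9%. With every cell thinned to 20000 UMIs (53 cells held fewer and were left out), the shares were 5.14%, 7.18%, 14.9%, 8.79% and 10.3% in the same order. The shares were therefore set in part by depth, and levels are given below as UMIs summed over cells, per 1000000 UMIs of those cells (CPM). Intervals are 95% Poisson or binomial intervals and cover counting error only. CPM values were read within a gene across cells, not between genes.

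The 10X cells were grouped into 14 clusters, numbered by marker genes that include none of the 5. Clusters 13 (144 cells, markers Nppc and Bmp3) and 6 (169 cells, markers Pou3f2, Bcl11a and Gad1) were among the 3 highest for each of the 5 genes. Cluster 14 (100 cells, markers Gpr101, Ecel1 and Cxcl14) was among the 3 highest for Ldb2 and Zfp536 only. Cluster 13 was the highest for each of the 5 genes, and it was also the cluster with the least Tph2, at 644 CPM, whereas clusters 14 and 6 held 1445 and 2964 CPM. Clustering used the same cells and genes, so these levels describe the clusters and test nothing.

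The NFI genes shared the order of their highest clusters. Nfib, whose product is known for its part in glial and neuronal maturation, reached 90.7 CPM (interval 82.0 to 100.03) in cluster 13, followed by 24.2 CPM in cluster 6. Its level in cluster 14 was 0.84 CPM. Nfix reached 101 CPM (interval 92.2 to 111) in cluster 13, followed by cluster 6 at 40.7 CPM and cluster 2, whose markers are Crym and Trh, at 16.4 CPM. Clusters 5 and 11 came next at 11.7 and 7.04 CPM, and none of these neighbours in the order had overlapping intervals. For Nfia, the family member known for starting astrocyte genes, clusters 13 and 6 had 12.2 CPM (interval 9.20 to 16.0) and 7.53 CPM, and their intervals overlapped. Cluster 14 had little of any NFI transcript, with 0.56 CPM of Nfia and 2.24 CPM of Nfix.

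Ldb2 followed another order, with cluster 14 second, while Zfp536 began with clusters 13 and 6 as the NFI genes did. Ldb2 was highest in cluster 13 (51.7 CPM, interval 45.2 to 58.9), then in cluster 14 (36.4 CPM, 30.4 to 43.2), cluster 6 (12.3 CPM) and cluster 9 (5.27 CPM), and no neighbours in this order overlapped. Zfp536 was highest in cluster 13 too (42.2 CPM, interval 36.3 to 48.7), and clusters 6 and 14, at 21.6 and 19.6 CPM, overlapped. The 13-to-14 ratio separated the genes: on the log2 scale it was 6.75 for Nfib, 5.50 for Nfix and 4.45 for Nfia, but 1.104 for Zfp536 and 0.51 (interval 0.19 to 0.83) for Ldb2. Clusters 13 and 14 thus shared transcripts of Ldb2 and Zfp536 and differed in those of the NFI genes.

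Shares of cells with a UMI depend on depth and stand beside these levels. In cluster 13 a UMI was found in 64.6% of cells for Nfib, 68.8% for Nfix, 24.3% for Nfia, 62.5% for Ldb2 and 69.4% for Zfp536. Cluster 6, at its greater depth, had shares of 55.6% for Nfib, 63.3% for Nfix and for Zfp536, 29.0% for Nfia and 41.4% for Ldb2. Thinned to 20000 UMIs, clusters 13 and 6 had 57.5% and 32.9% for Nfib, 61.2% and 43.3% for Nfix, 23.1% and 14.0% for Nfia, 55.2% and 22.6% for Ldb2 and 54.5% and 31.1% for Zfp536. In cluster 14, Ldb2 had a UMI in 70% of cells and Zfp536 in 47%, but Nfib in 3%, Nfix in 8% and Nfia in 2%. The cells of these clusters were shallow, with medians of 28627.5 and 34715 UMIs in clusters 13 and 14, against 59617 UMIs for cluster 6. No cluster is known to lack these genes, so the lowest share stands for the background. It was 0.82% for Nfib in cluster 7 and, in cluster 8, 1.16% for Nfia, 2.33% for Nfix and 0 of 86 cells for Zfp536, while Ldb2 was lowest in cluster 11 at 1.54%. The median depths of clusters 7, 8 and 11 were 65766.5, 65592.5 and 65020 UMIs, so the background came from the deeper cells.

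The cluster levels were close in the 2 barcode sets. In cluster 13 Nfib was at 88.7 CPM in set 1 and 92.6 CPM in set 2, Nfix at 99.9 and 103 CPM, and Zfp536 at 42.7 and 41.6 CPM. Ldb2 was at 58.1 and 45.6 CPM. Nfix in cluster 6 was an exception, at 60.0 CPM in set 1 and 34.5 CPM in set 2, with intervals that did not overlap. Over all cells Nfix also differed, at 15.8 CPM (interval 14.7 to 17.0) in set 1 and 9.27 CPM (8.65 to 9.93) in set 2.

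Cells were next ordered by Tph2 and divided into 10 groups of equal size. Transcripts of all 5 genes were densest in the group with the least Tph2 (0 to 1157 CPM of Tph2). There Nfib was at 56.1 CPM, against 4.44 CPM in the next group (1158 to 1686 CPM of Tph2) and 1.80 CPM in the group with the most Tph2 (4258 to 8280 CPM). Nfix was at 64.4, 12.3 and 5.79 CPM in these 3 groups, and Ldb2 at 34.9, 8.52 and 1.29 CPM. Zfp536 was at 26.6, 7.54 and 4.83 CPM, and Nfia at 8.60, 2.93 and 2.45 CPM. For Nfia, Nfib, Nfix and Zfp536 most of the fall thus lay between the lowest group and the next. Ldb2 also fell further over the remaining groups, from 8.52 to 1.29 CPM.

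**Figure D1:**
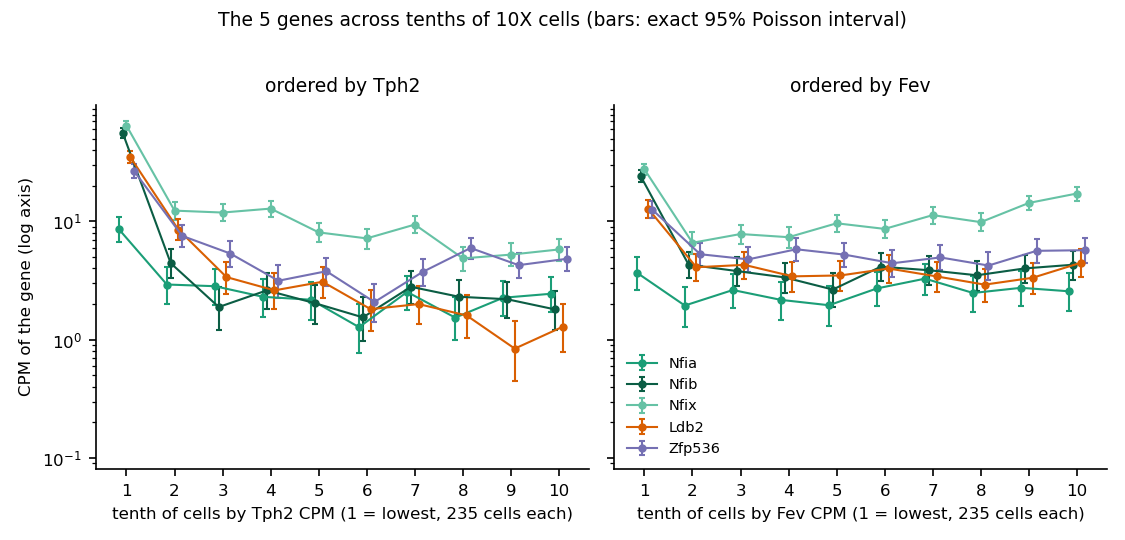
CPM of UMIs of each of the 5 genes in 10 equal groups of 10X cells ordered by their Tph2 level (lowest to highest), with 95% Poisson intervals. Each gene is highest in the lowest group, and Nfib goes from 56.1 CPM there to 4.44 CPM in the next.

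A limit of 500 CPM of Tph2 set apart 131 cells, called Tph2-low here, from 2219 others. The nearest cells on either side of the limit were at 496 and 508 CPM, and 37 cells of all clusters lay between 300 and 700 CPM. Of the Tph2-low cells, 109 belonged to cluster 13, 11 to cluster 14 and 11 to clusters 1 to 12. They were shallower than the others, with medians of 27329 and 60747 UMIs. All 5 genes were at least 2-fold higher in the Tph2-low cells, a direction the choice of genes had already fixed. Of the 10673 genes with at least 5 CPM in either group, 9.1% were at least 2-fold higher and 3.86% at least 2-fold lower there, and nothing is read from the 5 genes against this share.

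Nfib was at 104 CPM in the Tph2-low cells and 2.64 CPM in the others (log2 ratio 5.29, interval 5.08 to 5.51). Nfix was at 113 and 8.68 CPM (log2 ratio 3.70) and Nfia at 13.0 and 2.29 CPM (log2 ratio 2.51). Ldb2 was at 44.5 and 3.32 CPM (log2 ratio 3.74) and Zfp536 at 32.7 and 4.95 CPM (log2 ratio 2.72). Among the 10673 genes Nfib ranked 29th by this ratio, Ldb2 98th, Nfix 100th, Zfp536 187th and Nfia 222nd. The median ratio of all these genes was 0.20 on the log2 scale, the shift that this scaling gives a typical gene. Thinned to 20000 UMIs, a UMI of Nfib was found in 61.7% of the Tph2-low cells and 4.18% of the others, and a UMI of Nfix in 63.3% and 12.2%. At equal depth the direction was the same.

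The cells of cluster 13 were not all alike in Tph2, and there the 5 genes parted. In this cluster 109 cells were Tph2-low (Tph2 at 0 to 470 CPM, 129.9 CPM over all of them) and 35 were not (508 to 6419 CPM, 1697 CPM over all). Nfib was at 129.6 CPM in the former and 11.1 CPM in the latter (log2 ratio 3.55, interval 2.83 to 4.37). Nfix was at 138 and 26.9 CPM (log2 ratio 2.35, interval 1.88 to 2.87), and Nfia at 15.5 and 5.53 CPM (log2 ratio 1.49, interval 0.39 to 2.78). Ldb2, by contrast, was at 52.6 and 49.8 CPM (log2 ratio 0.08, interval -0.33 to 0.51). Zfp536 was at 37.5 and 51.8 CPM (log2 ratio -0.47, interval -0.90 to -0.03), so it was lower in the cells with little Tph2. Nfia, Nfib and Nfix were thus higher below the limit than above it inside the cluster, whereas Ldb2 and Zfp536 were present on both sides of the limit.

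**Figure D2:**
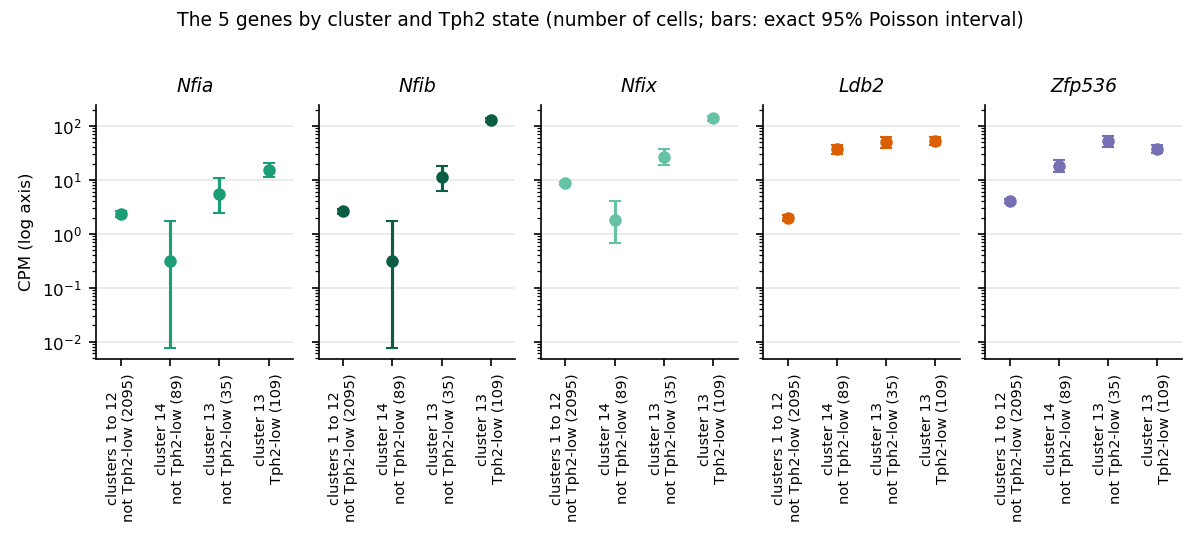
CPM of UMIs of each of the 5 genes in Tph2-low and other cells of cluster 13, with 95% Poisson intervals. Cells of cluster 14 and of clusters 1 to 12 are shown where they were not Tph2-low. Inside cluster 13 the NFI genes are higher in the Tph2-low cells, while Ldb2 stands at 52.6 and 49.8 CPM.

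Among the 10674 genes with at least 5 CPM in either group of cluster 13 cells, 7.54% were at least 2-fold higher and 3.41% at least 2-fold lower in the Tph2-low cells, with a median of 0.11 on the log2 scale. Nfib ranked 62nd by this ratio, Nfix 174th, Nfia 427th, Ldb2 5680th and Zfp536 9592nd. The Tph2-low cells were again shallower, with medians of 26943 and 42187 UMIs. With every cell thinned to 20000 UMIs, the log2 ratios were 3.81 for Nfib, 2.40 for Nfix, 1.07 for Nfia, -0.16 for Ldb2 and -0.56 for Zfp536. In barcode sets 1 and 2 they were 3.56 and 3.59 for Nfib, 3.31 and 1.97 for Nfix and 2.20 and 1.15 for Nfia. For Ldb2 the sets gave 0.22 and -0.13 and for Zfp536 -0.54 and -0.42. The interval of Zfp536 included 0 in each set and after thinning. That of Nfia included 0 in set 2 (-0.20 to 2.74) and after thinning (-0.19 to 2.60). The split of Nfib and Nfix from Ldb2 and Zfp536 was thus found in both sets and at equal depth, while that of Nfia was less certain.

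The same cells can be read from the other side. Among cells that were not Tph2-low, those of cluster 13 exceeded all other cells, pooled, by 4.15 (interval 3.77 to 4.52) on the log2 scale for Ldb2 and by 3.55 (3.18 to 3.90) for Zfp536, but by 2.12 for Nfib, 1.67 for Nfix and 1.29 for Nfia. Among Tph2-low cells, those of cluster 13 exceeded the rest by 4.36 for Nfib, 2.68 for Nfix and 2.04 for Nfia, and by 1.92 for Ldb2 and 1.31 for Zfp536. Tph2-low cells outside cluster 13 held few transcripts of Nfib. The 11 Tph2-low cells of cluster 14 had Nfib at 6.74 CPM (2 UMIs) beside Ldb2 and Zfp536 at 33.7 CPM each, and the 11 Tph2-low cells of clusters 1 to 12 had Nfib at 6.04 CPM (3 UMIs), Nfix at 30.2 CPM and Ldb2 at 2.01 CPM (1 UMI). These 2 sets of 11 cells are too few for more than their values.

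When the 144 cells of cluster 13 were divided by Tph2 into 3 sets of 48, the difference in Nfib and Nfix lay near the top of the range. Nfib was at 137 CPM in the set with the least Tph2 (0 to 90.8 CPM), 139 CPM in the middle set (92.7 to 248 CPM) and 24.5 CPM in the set with the most (250.3 to 6419 CPM). Nfix was at 159, 151 and 26.7 CPM, and Nfia at 13.4, 18.5 and 7.07 CPM. For Nfib and Nfix the lower 2 sets were alike and the highest stood apart, while the intervals of Nfia overlapped across all 3 sets. Ldb2 was at 48.7, 48.5 and 56.0 CPM and Zfp536 at 38.5, 32.3 and 51.7 CPM. Fev was at 139, 156 and 227 CPM, so it followed Tph2 upward across the sets. From the other side, the median Tph2 level was 115 CPM in cluster 13 cells with a UMI of Nfib and 470 CPM in those without, and 127 and 371 CPM for Nfix. It was 139 and 145 CPM for Nfia, 213 and 107 CPM for Ldb2 and 163 and 129 CPM for Zfp536. In cluster 6 the medians with and without a UMI were 2887 and 2954 CPM for Nfib, 2892 and 2977 CPM for Nfix and 2662 and 3077 CPM for Ldb2.

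Correlations over cells are given as a description. All cells come from 1 pooled table, they share the library and depth, and sparse counts hold correlations near 0. Over all 2350 cells Pearson's r of log-normalised counts with Tph2 was -0.56 for Nfib, -0.46 for Nfix, -0.45 for Ldb2, -0.35 for Zfp536 and -0.19 for Nfia. Tph2 was the gene with the lowest r to Nfib and to Nfix of the 12520 genes with a UMI in at least 5% of cells, and for Ldb2 that gene was Slc6a4 (-0.47), the serotonin transporter gene. Within cluster 13 (144 cells) r with Tph2 was -0.48 for Nfib and -0.38 for Nfix, but -0.13 for Nfia, 0.07 for Ldb2 and 0.15 for Zfp536. Among the 2219 cells that were not Tph2-low it was -0.31 for Ldb2 and between -0.14 and -0.04 for the other 4 genes. In cluster 6 (169 cells) it was -0.27 for Nfib and for Nfix, -0.22 for Ldb2, -0.12 for Nfia and -0.03 for Zfp536. In clusters 1 to 12 (2106 cells) all 5 values lay between -0.14 and -0.01. In cluster 14 (100 cells) they lay between -0.26 and -0.13. The negative r of Ldb2 and Zfp536 over all cells was thus not seen inside cluster 13, while that of Nfib and Nfix was.

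Total UMIs per cell moved with the same genes. Over all cells r with the total was -0.35 for Nfib, -0.33 for Ldb2, -0.31 for Nfix, -0.24 for Zfp536 and -0.15 for Nfia. Within cluster 13 it was -0.41 for Nfib and -0.34 for Nfix, and 0.13 and 0.14 for Ldb2 and Zfp536. After thinning, r with Tph2 inside cluster 13 was -0.51 for Nfib and -0.42 for Nfix. Inside the cluster r was not computed at equal depth, and the part of depth in it was not tested.

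The relation to Fev was weaker. The authors had removed cells with little Fev, so its range is cut at the low end, unlike that of Tph2. The part of this filter in the weaker relation was not tested. Fev was at 182 CPM in the Tph2-low cells and 339.8 CPM in the others (log2 ratio -0.90), and within cluster 13 at 151 and 240.5 CPM (log2 ratio -0.67, interval -0.87 to -0.46). In 10 groups ordered by Fev, Nfib was at 24.2 CPM and Nfix at 27.5 CPM in the group with the least Fev (64.4 to 166 CPM) and at 4.31 and 6.60 CPM in the next. Nfix was higher again, at 17.2 CPM, in the group with the most Fev (523 to 1154 CPM). Over all cells r with Fev was -0.20 for Nfib, -0.15 for Ldb2 and for Zfp536, -0.07 for Nfix and -0.04 for Nfia. Within cluster 13 r was between -0.07 and 0.01 for the NFI genes and Zfp536 and 0.23 for Ldb2, and in clusters 1 to 12 it was 0.19 for Nfix and at most 0.07 for the others. Values this near 0 in sparse counts are no finding.

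Joint detection was read next. Of the 2350 cells, 1228 had a UMI of none of the 5 genes, 651 of 1, 262 of 2, 105 of 3, 82 of 4 and 22 of all 5. Median Tph2 was 2761 CPM in the cells with none and 213 CPM in the cells with all 5. At least 3 of the genes were found in 209 cells, or 8.89%. The share was 58.0% of the Tph2-low cells (76 of 131, interval 49.1 to 66.6%) and 5.99% of the others (133 of 2219), or 49.2% and 1.98% at 20000 UMIs. The share was 61.8% for cluster 13 and 5.00% for cluster 14. For cluster 6 it was 48.5%, and 15.2% at 20000 UMIs. The 22 cells with all 5 genes lay in cluster 13 (15 cells), cluster 6 (6 cells) and cluster 2 (1 cell).

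**Figure D3:**
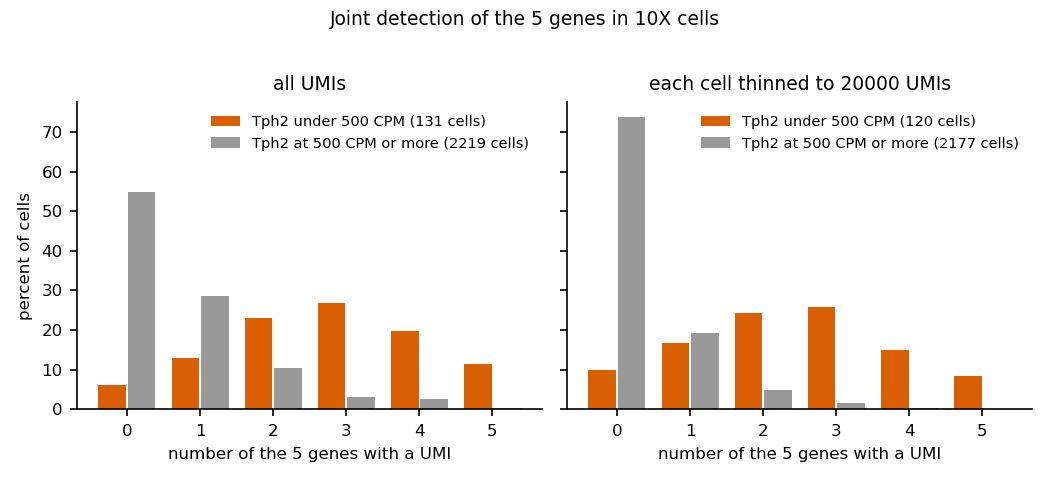
Share of 10X cells with a UMI of 0, 1, 2, 3, 4 or all 5 of the genes, by group of cells. Of the Tph2-low cells 58.0% have at least 3 of the genes, against 5.99% of the others.

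Inside cluster 13 some of the genes were found more often in cells that held another of them. Nfix had a UMI in 80 of the 93 cells with Nfib (86.0%) and in 19 of the 51 without (37.3%). Nfia went with both: Nfib was found in 80% of the 35 cells with Nfia and 59.6% of those without, and Nfix in 85.7% and 63.3%. Zfp536 too was found more often in cells with Nfia than in those without. Zfp536 had a UMI in 72 of the 90 cells with Ldb2 (80%) and in 28 of the 54 without (51.9%). Between Nfib and the other pair there was no such tie: Ldb2 was found in 60.2% of cells with Nfib and 66.7% of cells without, and Zfp536 in 67.7% and 72.5%. These shares are of unthinned counts. Cells with Ldb2 were deeper than those without (medians 30389 and 25880 UMIs), as were those with Zfp536 (30011 and 25989.5 UMIs). Cells with Nfib were shallower (27602 and 32338 UMIs). The part of depth in these shares was not tested. The commonest combinations in cluster 13 were Nfib, Nfix, Ldb2 and Zfp536 without Nfia (21 cells), Ldb2 with Zfp536 (16 cells) and all 5 (15 cells), and 5 cells had none. In cluster 14 the commonest were Ldb2 alone (32 cells) and Ldb2 with Zfp536 (28 cells), and there Zfp536 was found at like shares in cells with Ldb2 (47.1%) and without (46.7%).

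Correlations between the genes followed in part. Over all cells r between Nfib and Nfix was 0.67, and it was 0.66 within cluster 13. Nfia had an r of 0.34 with Nfix and 0.32 with Nfib. Between Ldb2 and Zfp536 r was 0.40 over all cells but 0.13 within cluster 13 and -0.05 within cluster 14. Nfib and Ldb2 had 0.38 over all cells and 0.03 within cluster 13, and Nfix and Zfp536 0.21 and -0.21. Within cluster 13 Nfia kept an r of 0.28 with Nfix and 0.30 with Nfib. The NFI genes thus kept their r to each other inside the cluster, as Nfia also did with Zfp536 at a low r (0.17 over all cells and 0.16 in cluster 13), while the other pairs with r given here did not.

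The genes most like each of the 5 were taken as the 5 with the highest r over the 2350 cells among 12520 genes. For Nfib they were Satb1 (0.73), Nfix (0.67), Kctd8 (0.63), Kcnip4 (0.59) and Nptx2 (0.57). Satb1 encodes a chromatin organiser, Kctd8 an auxiliary subunit of GABA-B receptors, Kcnip4 an interacting protein of A-type potassium channels and Nptx2 a secreted pentraxin of synapses. Nfix had Nfib, Satb1 (0.62), Ephb1 (0.52), Nptx2 (0.51) and Kctd8 (0.50), and Nfia had Nfix, Nfib, Satb1 (0.25), Nptx2 (0.25) and Pou3f2 (0.24). Ldb2 had Erbb4 (0.59), the neuregulin receptor, Kctd8 (0.58), Cnr1 (0.57), the cannabinoid receptor, Cbln4 (0.51) and Wbscr17 (0.48). Zfp536 had RP23-291B1.2 (0.57), Erbb4 (0.49), Cbln4 (0.48), Cnr1 (0.47) and Necab1 (0.44). The NFI genes and the other pair therefore had largely different nearest genes, with Kctd8 on the lists of Nfib, Nfix and Ldb2.

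The neighbours, chosen by r over these same cells, differed inside cluster 13. Satb1 was at 155.6 CPM in its Tph2-low cells and 9.67 CPM in the rest (log2 ratio 4.01), and Kcnip4, Ephb1, Kctd8, Nptx2 and Pou3f2 had log2 ratios of 3.13, 2.61, 1.92, 1.78 and 1.57. Erbb4, Cnr1 and Necab1 had log2 ratios of -0.27, -0.24 and -0.56, and Cbln4 of 0.33. Wbscr17 was at 0.89, and RP23-291B1.2 at -1.13. Kctd8 and Wbscr17 are also neighbours of Ldb2, whose own ratio there was 0.08. Over clusters 13, 14 and 1 to 12, Satb1 was at 108, 7.01 and 6.18 CPM and Nptx2 at 98.2, 4.20 and 2.47 CPM, highest in cluster 13 of these 3 groups. Cnr1 was at 88.0, 57.2 and 6.90 CPM and Erbb4 at 133, 112 and 15.1 CPM, so cluster 14 stood nearer to cluster 13 for these than for Satb1 and Nptx2.

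The rest of the NFI family and the partners of Ldb2 and Zfp536 were taken from lists. The fourth family gene, Nfic, was at 48.7 CPM in the Tph2-low cells and 23.7 CPM in the others (log2 ratio 1.04, interval 0.81 to 1.25, which reaches below 2-fold). Inside cluster 13 its ratio was 0.19 (interval -0.23 to 0.63), which did not overlap those of Nfib and Nfix. Of 19 genes of LIM-domain complexes, 14 were in the table and 11 reached 5 CPM in either group. Of these 11, 3 were at least 2-fold higher and 0 at least 2-fold lower in the Tph2-low cells, beside 9.1% and 3.86% of all genes, with Ldb2 joined by the LIM-only genes Lmo1 (25.0 and 3.24 CPM) and Lmo4 (124 and 21.3 CPM). The paralogue Ldb1 had a log2 ratio of 0.21. Inside cluster 13 Lmo1 was at 29.7 and 1.38 CPM and Lmo3 at 13.2 and 0.69 CPM in Tph2-low and other cells (2 and 1 UMIs in the others), while Lmo4 was at 131 and 49.8 CPM and Lmo2 at 10.1 and 3.45 CPM. Inside the cluster these ratios were past 2-fold, as those of 7.54% of all genes were. Against cluster 14, cluster 13 had log2 ratios of 3.86 for Lmo1, 0.30 for Lmo4 and -0.31 for Lmo3.

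Of the zinc finger and corepressor genes, 10 reached 5 CPM and 1, Zfp536 itself, was at least 2-fold higher, a share near the 9.1% of all genes, and the list's median log2 ratio was 0.32 beside 0.20 for all genes. Zfp521, a zinc finger gene of progenitors and neurons, had a log2 ratio of -0.97. Of 13 serotonin identity genes, 0 were at least 2-fold higher and 7 at least 2-fold lower in the Tph2-low cells, beside 9.1% and 3.86% of all genes. Tph2, which set the limit, had a log2 ratio of -4.28, the transporter genes Slc6a4 and Slc18a2 had -3.25 and -2.60, and the enzyme genes Gch1, Maob and Ddc had -2.37, -2.27 and -1.64, with -1.12 for Gchfr, which encodes a regulatory protein of the Gch1 enzyme. The transcription factor genes of the list had smaller ratios, of -0.90 for Fev, -0.81 for Gata2, -0.28 for Lmx1b, -0.23 for Gata3, -0.05 for En1 and 0.95 for En2. The 7 lower genes were thus those of serotonin synthesis, transport and breakdown. Over all cells r with the 6 of these other than Tph2 lay between -0.54 and -0.22 for Nfib, between -0.42 and -0.11 for Nfix and between -0.15 and -0.005 for Nfia, and between -0.47 and -0.15 for Ldb2 and between -0.38 and -0.13 for Zfp536.

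Because NFI genes are also expressed in glia, glial transcripts were read in the same cells. The summed astrocyte markers had a median of 280.2 CPM per cell (0 to 864) in the Tph2-low cells and 343 CPM (0 to 1456) in the others, and Gfap, Slc1a3 and Fgfr3, 3 of the 7 markers, had no UMI in the Tph2-low cells. The sum was nearly all Aldoc (291 and 397 CPM), and Sox9 (2.13 and 0.27 CPM) and Gja1 (1.33 and 0.43 CPM) were higher in the Tph2-low cells at 8 and 5 UMIs. The summed oligodendrocyte markers had medians of 57.2 CPM (0 to 979) and 26.4 CPM (0 to 2074), and 1 of the 8 had no UMI in the Tph2-low cells. The myelin gene Mbp was at 50.3 and 21.2 CPM, at least 2-fold higher there. Of the 6 markers of other neurons 4 were in the table and 1 reached 5 CPM, Slc32a1, the vesicular GABA transporter gene, at 6.39 and 0.44 CPM, with a UMI in 3.05% of the Tph2-low cells and 1.71% of the others, so few cells made the level. Summed markers of microglia (0.53 and 2.05 CPM) and endothelium (0.27 and 1.77 CPM) were near 0 in both. Of the 4 neuronal markers, Snap25 was at 1308 and 1318 CPM, Rbfox3 at 151 and 159 CPM, Tubb3 at 453 and 376 CPM and Syt1 at 1374 and 2398 CPM. Over all cells r between any of the 5 genes and the summed glial markers lay between -0.12 and 0.10. The part of oligodendrocyte and other neuronal transcripts in these levels was not tested.

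The manually sorted cells gave much deeper libraries but few cells with these genes. Reads of Nfia were found in 13 of the 70 cells, of Nfib in 8, of Nfix in 18, of Ldb2 in 7 and of Zfp536 in 20. No cell was Tph2-low by the limit used above, since Tph2 ranged from 2720 to 21204 CPM of reads, with a median of 9526 CPM, and Fev from 242 to 1205 CPM. None of the 5 genes was found in 30 cells, 1 in 21, 2 in 15, 3 in 1 and 4 in 3, and no cell had all 5. In every group the lowest value of each gene was 0 CPM, so all groups overlapped for all 5 genes.

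**Figure D4:**
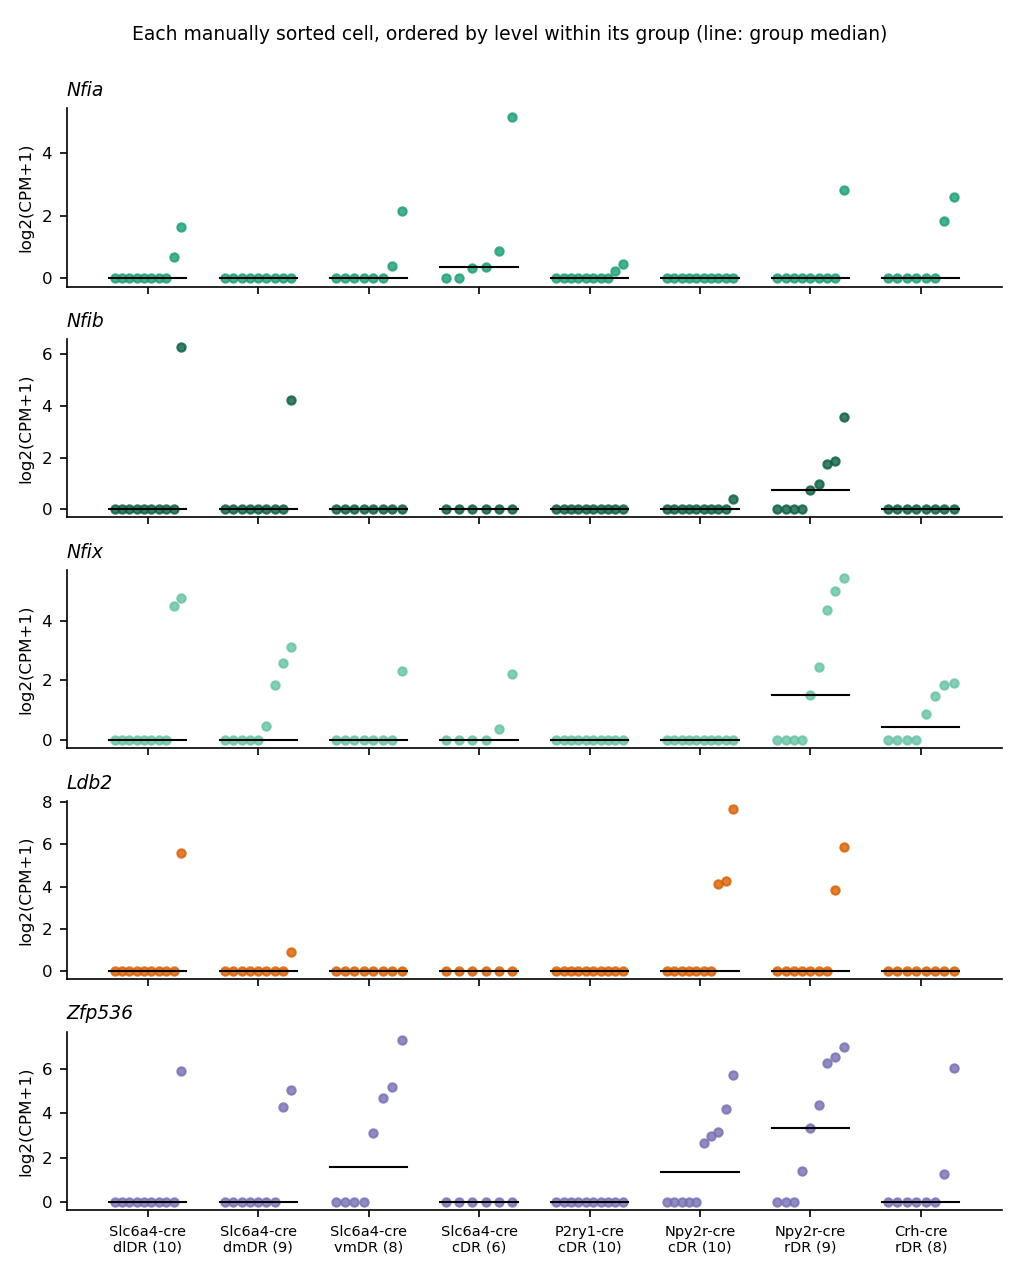
CPM of reads of each of the 5 genes in each of the 70 manually sorted cells, by group (points, 1 cell each). Most cells are at 0, and single cells set the highest values, such as 76.0 CPM of Nfib in a dorsolateral cell and 202 CPM of Ldb2 in a caudal Npy2r::cre cell.

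Nfib and Nfix were found most often in Npy2r::cre cells of the rostral DR. Nfix had reads in 5 of these 9 cells (median 1.85 CPM, highest 41.7 CPM) and in none of the 10 Npy2r::cre or the 10 P2ry1::cre cells of the caudal DR. It also had reads in 4 of 8 Crh::cre cells (median 0.42, highest 2.78 CPM), and among Sert::cre cells in 2 dorsolateral (highest 25.8 CPM), 4 dorsomedial (7.77), 1 ventromedial (4.03) and 2 caudal cells (3.66). Nfib had reads in 5 of the 9 rostral Npy2r::cre cells (median 0.67, highest 10.8 CPM), and in 1 dorsolateral and 1 dorsomedial Sert::cre cell and 1 caudal Npy2r::cre cell, at 76.0, 17.7 and 0.31 CPM. Nfia was found in 4 of 6 Sert::cre cells of the caudal DR (median 0.28, highest 34.7 CPM), and the other 9 cells with its reads lay in 5 other groups and reached at most 6.14 CPM. The highest values of Nfia and Nfib each stood alone in their group, whereas Nfix was at 41.7, 30.9 and 19.7 CPM in 3 of the rostral Npy2r::cre cells.

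Ldb2 was found in Npy2r::cre cells of both regions, in 3 of 10 caudal cells (16.2, 18.1 and 202 CPM) and in 2 of 9 rostral cells (13.5 and 57.1 CPM), and otherwise in 1 dorsolateral cell (46.9 CPM) and 1 dorsomedial cell (0.89 CPM). Zfp536 had reads in 6 of 9 rostral Npy2r::cre cells (median 9.25, highest 128 CPM), 4 of 8 ventromedial cells (median 3.83, highest 158 CPM) and 5 of 10 caudal Npy2r::cre cells (median 2.66, highest 51.6 CPM). It was also found in 2 dorsomedial, 2 Crh::cre and 1 dorsolateral cell, and in no caudal cell of the Sert::cre or P2ry1::cre groups. Of the 7 cells with Ldb2, 5 also had Zfp536, 3 had Nfib, 1 had Nfix and 0 had Nfia, and of the 63 without Ldb2 15 had Zfp536, 5 had Nfib, 17 had Nfix and 13 had Nfia.

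Individual cells show how the genes met. Dorsolateral cell 10 had Nfib at 76.0, Nfix at 21.5 and Zfp536 at 59.4 CPM with no Ldb2, and its Tph2 was 7451 CPM and its Fev, at 1205 CPM, the highest of the 70. Rostral Npy2r::cre cell 9 had Nfib at 10.8, Ldb2 at 13.5 and Zfp536 at 128 CPM with Tph2 at 10132 CPM. In 4 groups the cell with the least Tph2 carried one of the genes at a high level. Caudal Npy2r::cre cell 10 (Tph2 3073 CPM) had Ldb2 at 202 CPM, rostral Npy2r::cre cell 6 (5592 CPM) had Ldb2 at 57.1 and Zfp536 at 76.6 CPM, dorsomedial cell 4 (3442 CPM) had Nfib at 17.7 CPM and ventromedial cell 2 (5368 CPM) had Zfp536 at 158 CPM. These cells were picked out after their values were seen.

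Over the 70 cells, which share groups and preparations, r of log2(CPM + 1) with Tph2 was -0.04 for Nfia, -0.21 for Nfib, 0.02 for Nfix, -0.23 for Ldb2 and -0.01 for Zfp536. With Fev it was 0.40 for Nfib and 0.29 for Nfix, and 0.30 and 0.16 for deviations from the group means. Between the genes r was 0.35 for Nfia with Nfix, 0.30 for Nfib with Nfix and 0.32 for Ldb2 with Zfp536. The neighbours found in 10X cells had like values here for Zfp536, with 0.62 for Necab1, 0.57 for Erbb4, 0.50 for Cbln4 and 0.47 for Cnr1. Ldb2 had 0.54 with Kctd8, 0.48 with Erbb4, 0.37 with Cnr1 and 0.32 with Cbln4. The neighbours of the NFI genes were mixed. Nfib had 0.45 with Kctd8, 0.38 with Nptx2 and 0.33 with Satb1, but -0.07 with Kcnip4. Nfix had 0.57 with Ephb1, 0.35 with Kctd8, 0.23 with Nptx2 and 0.10 with Satb1. Nfia had 0.11 with Pou3f2, 0.09 with Satb1 and -0.01 with Nptx2. All rest on few cells with reads.

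Mean CPM was also compared in 5 pairs of groups, with a change called at 2-fold or more among genes with at least 5 CPM in either group and no p-value. In caudal against rostral Npy2r::cre cells, where 10.6% of 10648 genes were at least 2-fold higher and 13.4% lower, Nfix was at 0 and 11.0 CPM and Zfp536 at 8.95 and 36.4 CPM (log2 ratio -2.02, or -1.48 without the highest cell). Ldb2 was at 23.7 and 7.85 CPM (log2 ratio 1.59), and without its highest cell the ratio was -1.04, so its direction rested on 1 cell. Within ages, Nfix had reads in 2 of 3 rostral cells at 77 days and 3 of 6 at 87 days and in none of the caudal cells at either age. Zfp536 was at 6.52 CPM in rostral and 1.74 CPM in caudal cells at 77 days and at 51.3 and 13.8 CPM at 87 days, and all cells with Ldb2 were 87 days old.

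In Crh::cre against Npy2r::cre cells of the rostral DR, with 11.2% of genes higher and 10.9% lower, Nfix was at 1.01 and 11.0 CPM (log2 ratio -3.44, or -2.82 without the highest cell) and Zfp536 at 8.32 and 36.4 CPM (-2.13, or -1.58). The highest cell left out for Zfp536 was an Npy2r::cre cell. Its mean in Crh::cre cells rested on 1 cell at 65.1 CPM, with the next at 1.39 CPM. Ldb2 was at 0 and 7.85 CPM, with reads in 2 cells. In dorsolateral against dorsomedial cells (8.04% higher, 11.4% lower) Nfib was at 7.60 and 1.97 CPM, each from 1 cell. In dorsomedial against ventromedial cells (9.55% higher, 12.6% lower) Zfp536 was at 5.62 and 28.3 CPM (log2 ratio -2.33), and -0.79 without the highest cell. In P2ry1::cre against Sert::cre cells of the caudal DR (17.7% higher, 20.2% lower) Nfia was at 0.06 and 6.02 CPM, the latter resting on the cell at 34.7 CPM. In the rostral comparison driver and age cannot be told apart, since the groups share no age, while in the caudal comparison the ages were 62 to 74 days and 63 days.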

How the data were processed

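The 5 genes, the gene lists and the contrasts were chosen with earlier results of these data known. The 10X table holds UMI counts deposited by the authors, made with Cell Ranger 3.0.2 on mm10 per the submitters' processing notes, after the authors had removed genes found in few libraries, and libraries that had few genes, little Fev, outlying totals or many transcripts of glia or mitochondria. The manual table holds read counts deposited by the authors, mapped and counted with STAR 2.5.4 on mm10 from SMART-Seq v4 libraries, with no filter on cells. The notes also name R 3.5.3. Reads of the manual libraries carry no UMIs, so their copies are not independent molecules. The manual columns named for Crf were matched to the samples titled Crh by their group, region and number.

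Clusters were rebuilt with Seurat 5.3.0 (R 4.3.3) from 2000 variable genes and 50 principal components without components 6 and 7, which separated the barcode sets, at k = 20, resolution 0.9 and seed 42. They may differ in single cells from the study's own clusters. Values were summed or correlated with Python 3.11.15, numpy 2.4.6, scipy 1.17.1, pandas 2.3.3 and matplotlib 3.10.9. CPM is the sum of UMIs per 1000000, and in manual cells reads per 1000000 of each cell, averaged over a group. Intervals of levels are exact Poisson, of ratios exact conditional binomial and of shares Clopper-Pearson, at 95%. No p-value was computed, because the 10X table is 1 sample and each manual group 1 sample. Scrublet (scanpy 1.11.5, expected rate 5%) called 7 cells in each barcode set, 0.596% of all, and none was Tph2-low. They were kept, and leaving them out was an alternative. On simulated counts for the Tph2-low contrast over 9914 genes, 100% of the 200 genes planted at 4-fold or 16-fold passed 2-fold, as did 0.0309% of the unchanged genes, and 94 to 98% of intervals held the true value. These counts were drawn from the Poisson model that the intervals assume. The simulation thus checks the computation and cannot test the intervals against variation between cells.

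The text names the 5 genes, Tph2, Fev, the lists of the NFI family, LIM-domain complexes, zinc finger and corepressor genes, serotonin identity and cell type markers, and the 5 genes nearest to each of the 5 by r. Promoters were searched for TTGGC on both strands and for the full site. Alternatives were other Tph2 limits, thinning, doublets, glial transcripts, barcode sets, cell weighting, rank correlation, 2 UMIs for detection, other clusterings, read minimums, pseudocounts, ages, and filters on low values.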

Additional observations from a re-analysis of the deposited data

Results flagged for a closer look

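In a group of 4 to 10 manual cells, a cell was picked out when its gap to the nearest other cell was large against the range of the group by Dixon's limits, which chance passes in about 1 of 20 groups. Of 26 sets of values with any reads, 13 had such a cell, each the highest, and in 8 of the 13 all other cells of the group were at 0. The values are sparse and far from the normal spread that the limits assume. For Nfia the cells were dorsolateral cell 8 (2.12 CPM), ventromedial cell 5 (3.43 CPM), caudal Sert::cre cell 6 (34.7 CPM) and rostral Npy2r::cre cell 2 (6.14 CPM). For Nfib they were dorsolateral cell 10 (76.0 CPM), dorsomedial cell 4 (17.7 CPM) and caudal Npy2r::cre cell 3 (0.309 CPM). For Nfix they were ventromedial cell 6 (4.03 CPM) and caudal Sert::cre cell 6 (3.66 CPM), the latter also the highest cell of its group for Nfia. For Ldb2 they were dorsolateral cell 3 (46.9 CPM) and dorsomedial cell 4 (0.887 CPM), and for Zfp536 dorsolateral cell 10 (59.4 CPM) and Crh::cre cell 7 (65.1 CPM). Dorsolateral cell 10 and dorsomedial cell 4 each appear for 2 genes.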

How the results depend on the processing

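No paired analysis was possible because no result comes from a test, and replicate numbers only name cells. Of 244 alternative values, 187 stayed within the spread, 56 moved beyond it and 1 more changed sign. Values near 0, such as r with Tph2 in manual cells, changed sign more often. The log2 ratio of Tph2-low cells moved for Nfib to 4.73 at a limit of 1000 CPM and 4.58 for the lowest of the 10 groups by Tph2, for Nfia to 1.95 for that group, and for Nfix to 3.91 at 250 CPM, 3.15 at 1000 CPM, 2.95 for that group, 3.31 in set 1 and 3.97 in set 2. For Ldb2 it moved to 3.23 thinned, 4.21 in set 1, 3.27 in set 2 and 3.31 for mean CPM per cell. For r with Tph2, Spearman's coefficient was -0.0423 for Nfia, -0.212 for Nfib, -0.180 for Nfix, -0.278 for Ldb2 and -0.157 for Zfp536. Thinned, r was -0.515 for Nfib, -0.416 for Nfix, -0.382 for Ldb2 and -0.260 for Zfp536. In sets 1 and 2 it was -0.401 and -0.501 for Nfix, -0.514 and -0.389 for Ldb2, and -0.401 and -0.314 for Zfp536. For r with Fev, Spearman's coefficient changed sign for Nfix, to 0.0967. It was -0.0842 for Nfib, -0.0900 for Ldb2 and -0.0959 for Zfp536. Thinned, r was -0.146 for Nfib and -0.0719 for Zfp536. In sets 1 and 2 it was -0.282 and -0.140 for Nfib, -0.275 and -0.0510 for Ldb2 and -0.252 and -0.0797 for Zfp536, and for Nfia -0.0803 in set 1. Cells with at least 3 genes came to 4.44% of all and 1.98% of cells that were not Tph2-low when thinned, and to 2.72%, 1.53% and, of Tph2-low cells, 22.9% with 2 UMIs for detection. In alternatives chosen after seeing the data, the ratio within cluster 13 moved for Nfix in set 1 (3.31), and leaving out the highest manual cell turned the ratio of Ldb2 in Npy2r::cre cells (-1.04) and took 4 other ratios under 2-fold or under the minimum level, while Zfp536 went from 5.94 to 0 CPM in dorsolateral cells against 5.62 CPM in dorsomedial cells, past 2-fold. With a minimum of 10 reads, 6 manual cells had Nfia, and r of Ldb2 with Tph2 over the cells with reads was 0.0066. With a minimum of 1 CPM, 1748 genes were 2-fold higher and 800 lower in Tph2-low cells, 1762 were higher in caudal than rostral Npy2r::cre cells, 1921 higher and 1754 lower in Crh::cre than Npy2r::cre cells, 1435 and 1953 in dorsolateral than dorsomedial, and 1770 and 2019 in dorsomedial than ventromedial cells. The causes were not tested. At resolution 0.7, and with components 6 and 7 kept, cluster 14 was part of cluster 7 and gave no value of its own. At resolution 0.7 cluster 6 gave no value of its own either. Levels near 1 UMI per cell, and shares in the shallow cells of clusters 13 and 14, are limited by depth.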
